A study of Mus musculus with 8 samples.

Results

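Toll-like receptors and the cytosolic NOD receptors, with the co-receptor Cd14, the adaptor Myd88 and the kinase Ripk2, were followed in primary mouse lung fibroblasts given TWEAK, a cytokine of the TNF superfamily. The 10 genes, Tlr1, Tlr2, Tlr3, Tlr4, Tlr6, Cd14, Myd88, Nod1, Nod2 and Ripk2, were selected by gene symbol from a table of 52110 symbol rows. Each symbol matched 1 row, and all 10 genes passed the filter on low counts. Wild-type (WT) fibroblasts, kept in serum-supplemented DMEM, were sampled after 48 hours in 4 groups: untreated, and with TWEAK at 10, 30 or 100 ng/ml. Every group held 2 libraries, 8 in all. Groups and doses are used as labelled, and the fewest genes were called against untreated cells at the highest labelled dose; whether the doses of these libraries are labelled correctly was not tested, and every comparison of doses rests on it. Nothing in the labels tells whether replicate libraries were made from separate cultures or animals, and the spread behind the p-values may therefore be technical.

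Toll-like receptors are membrane proteins that recognise conserved microbial molecules. Tlr2 works as a heterodimer with Tlr1 or Tlr6 on bacterial lipopeptides, Tlr4 recognises lipopolysaccharide with the help of Cd14 and Ly96 (MD-2), and Tlr3 recognises double-stranded RNA in endosomes. All of these except Tlr3 can signal through Myd88 to NF-kB. Nod1 and Nod2 sense fragments of bacterial peptidoglycan in the cytosol and signal to NF-kB through Ripk2. Fibroblasts are known to express several of these receptors and to release chemokines when they are engaged.

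Library depth ranged from 37345575 to 50896445 counts. Levels are given as CPM, counts divided by library size after TMM, a correction for library composition, and 3 counts stood for 0.0599 to 0.0801 CPM. The first principal component held 63.9% of the variance of log2 CPM and placed the libraries at 100 ng/ml (-27.1 and -27.2) between the untreated ones (-49.0 and -47.5) and those at 10 and 30 ng/ml (25.5 to 45.6). Fibroblast markers (8 genes) summed to 20452 to 20798 CPM in untreated cells and 18110 to 18973 at 100 ng/ml. The sums were 9936 to 10009 at 10 ng/ml and 10838 to 12143 at 30 ng/ml. At 10 ng/ml Dcn and Pdgfra were called higher and Col1a1, Col1a2, Col3a1, Pdgfrb, Thy1 and Lum lower. At 30 ng/ml Pdgfra was called higher and the same 6 lower, and none was called at 100 ng/ml. Over all genes 15.0% were called higher and 14.2% lower at 10 ng/ml, and 12.6% and 10.7% at 30 ng/ml. The epithelial list (8 genes) summed to 0.479 to 0.582 CPM in untreated cells and 0.651 to 0.905 at 100 ng/ml. Its sums were 0.982 to 1.52 at 10 ng/ml and 1.23 to 2.22 at 30 ng/ml. Epcam had 0 counts in every library, and Cdh1 had counts only at 10 ng/ml. Krt18, the only tested gene of this list, had log2 changes of 1.29, 1.84 and 0.55 at 10, 30 and 100 ng/ml. It was called higher at 30 ng/ml. Macrophage and other myeloid markers (14 genes) summed to 16.8 to 21.2 CPM in untreated cells, 25.0 to 28.1 at 10 ng/ml, 23.8 to 29.3 at 30 ng/ml and 28.7 to 30.9 at 100 ng/ml. Of these myeloid genes 8 were tested. At 10 ng/ml Cd68 was called higher, with a log2 change of 2.10 (edgeR adjusted p = 5.55e-05), and Mertk was called lower, with -2.34 (edgeR adjusted p = 0.00122). Ptprc (CD45), used here with Adgre1 and Csf1r to define macrophages, had 0 counts in both libraries at 10 ng/ml. Ptprc had counts in every other group, and Adgre1 and Csf1r had counts in all groups. The part of any other cell type in the results below was not tested.

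The promoters of Tlr2, Tlr1 and Nod2 are shown because these genes had higher levels at 10 ng/ml and have a window in the RefSeq table used. Each window runs from 250 bases before to 50 bases after the gene's start (RefSeq, GRCm38.p6), 5′ to 3′ on the gene's strand. Capitals mark matches to the NF-kB consensus, searched on both strands. Tlr1 had a further window, chr5:64932650-64932949, which held no match and is not shown.
Tlr2, chr3:83841559-83841858, minus strand: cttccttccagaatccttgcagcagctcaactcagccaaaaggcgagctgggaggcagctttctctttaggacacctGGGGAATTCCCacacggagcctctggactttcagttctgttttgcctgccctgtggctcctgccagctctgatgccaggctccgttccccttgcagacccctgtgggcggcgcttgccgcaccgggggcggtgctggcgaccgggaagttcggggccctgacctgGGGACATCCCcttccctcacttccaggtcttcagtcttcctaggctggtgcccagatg
Tlr1, chr5:64933509-64933808, minus strand: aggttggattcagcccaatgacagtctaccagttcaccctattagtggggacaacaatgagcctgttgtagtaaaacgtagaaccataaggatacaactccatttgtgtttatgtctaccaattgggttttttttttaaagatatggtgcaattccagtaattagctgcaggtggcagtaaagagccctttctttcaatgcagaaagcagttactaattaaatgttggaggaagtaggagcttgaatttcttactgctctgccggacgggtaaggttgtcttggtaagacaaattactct
Nod2, chr8:88647097-88647396, plus strand: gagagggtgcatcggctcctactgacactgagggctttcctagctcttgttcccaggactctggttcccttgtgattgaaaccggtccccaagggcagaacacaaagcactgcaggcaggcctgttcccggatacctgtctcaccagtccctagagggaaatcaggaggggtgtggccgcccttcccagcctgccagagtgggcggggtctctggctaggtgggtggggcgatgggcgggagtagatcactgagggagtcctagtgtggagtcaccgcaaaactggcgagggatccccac

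The Tlr2 window held 3 matches to the NF-kB consensus. The matches GGGGAATTCC and GGGAATTCCC overlap, beginning 173 and 172 bases before the start, and GGGACATCCC begins 8 bases before it. The windows of Tlr1 and Nod2 held no match, which says only that these letters are not in these 300 bases. Of the 10 genes, 7 had at least 1 window, 10 windows in all, and the only other match was GGGAGTTTCC, 211 bases before the start of Tlr3. The consensus occurred in 8.46% of 32851 windows of the same length. The AP-1 motif TGANTCA, present in 7.81% of all windows, was in none of the 10. The core of the interferon-stimulated response element (GAAA, any 2 bases, GAAA) was present in 3.44% of all windows, and it occurred at 2 overlapping positions in a window of Tlr6 and at 1 in that of Myd88. A match is a description of the sequence and no evidence of binding.

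At 10 ng/ml TWEAK, 4 of the 10 genes rose, Tlr1, Tlr2, Cd14 and Nod2, and none fell. Called genes are those with a Benjamini-Hochberg adjusted p under 0.05 in the quasi-likelihood test of edgeR, adjusted over 17360 tested genes; by this rule 29.2% of all genes were called at this dose, 15.0% higher and 14.2% lower. At 30 ng/ml Tlr1, Tlr2 and Cd14 rose and Myd88 fell, against a background of 23.3% of genes called, 12.6% higher and 10.7% lower. At 100 ng/ml none of the 10 was called by edgeR, where 1.12% of genes were called, 0.812% higher and 0.305% lower. Of the 10, 3 had an unadjusted p under 0.05 at that dose (Tlr1, Tlr2 and Myd88), beside 2017 of the 17360 tested genes. DESeq2 called 1 of the 10, Tlr1, beside 598 genes called by DESeq2 over all genes. The median log2 change of the 10 genes was 0.51 at 10 ng/ml, 0.61 at 30 ng/ml and 0.18 at 100 ng/ml, beside 0.0063, 0.0059 and 0.0019 over all tested genes. All of these contrasts share the untreated libraries.

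**Figure D1:**
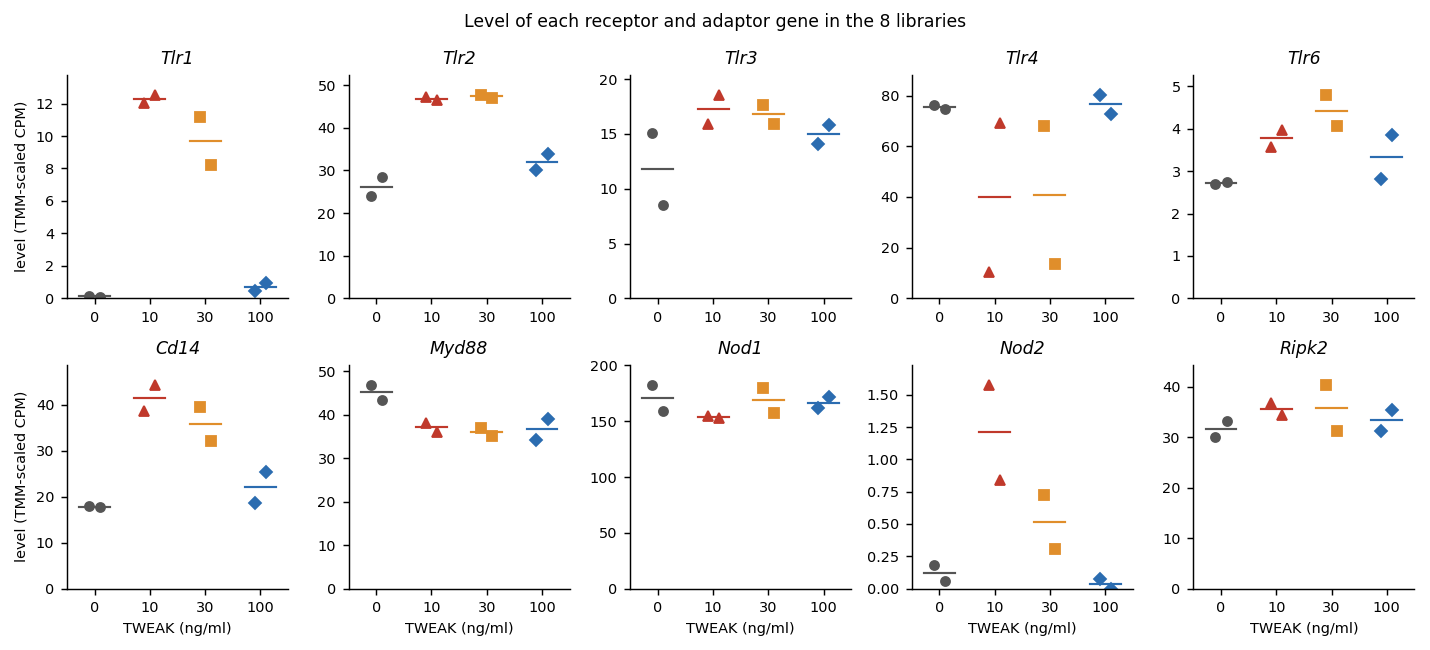
Level of each of the 10 genes (y axis, TMM-scaled CPM, starting at 0) in each library (points) against TWEAK dose (x axis, ng/ml; 0 is untreated), with the mean of 2 libraries as a line. Tlr1 was between 8.22 and 12.5 CPM at 10 and 30 ng/ml and under 1 CPM elsewhere, while the libraries of a group lay far apart for Tlr4 at 10 and 30 ng/ml.

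Tlr1 made the largest change of the 10 at 10 and 30 ng/ml. This receptor pairs with Tlr2 for triacylated lipopeptides and lies at chr5:64924679-64933563 on the minus strand (mm10, GENCODE M21, as for all positions given). It was counted 7 and 5 times in the untreated libraries, 450 and 536 times at 10 ng/ml, 506 and 348 times at 30 ng/ml, and 17 and 38 times at 100 ng/ml. These counts correspond to 0.120 ± 0.0279, 12.3 ± 0.362, 9.68 ± 2.07 and 0.689 ± 0.370 CPM (SD, n = 2). In words, the gene was barely detected in untreated cells, and every treated library was above both untreated ones. In bulk RNA, a change in the number of expressing cells and a change in RNA per cell cannot be told apart, here and for every gene below.

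Tlr1 rose by 6.64 ± 0.42 (SE) on the log2 scale at 10 ng/ml, a 99.8-fold change with a 95% interval of 51.1 to 195 (edgeR adjusted p = 2.07e-05). At 30 ng/ml the log2 change was 6.30 ± 0.42 (edgeR adjusted p = 4.27e-05). The change at 100 ng/ml was 2.49 ± 0.47 and did not pass the threshold (edgeR adjusted p = 0.0636), although DESeq2 gave 2.52 with an adjusted p of 0.000263. Without replicate 1 of 100 ng/ml the edgeR value was 2.95 (adjusted p = 0.0252), and without replicate 2 it was 1.80. Between doses, Tlr1 at 100 ng/ml was below 10 ng/ml by a log2 difference of -4.15 ± 0.34 (edgeR adjusted p = 0.000147) and below 30 ng/ml by -3.81 ± 0.34 (edgeR adjusted p = 0.000412). These differences were -4.84 and -4.49 without replicate 2 of 100 ng/ml. Levels at 30 and 10 ng/ml were not separated (log2 difference -0.34, 95% interval -0.99 to 0.31, edgeR adjusted p = 0.870).

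Tlr2, the shared partner of Tlr1 and Tlr6 (chr3:83836272-83841767, minus strand), was already well expressed without TWEAK. Its level was 24.0 and 28.4 CPM in the untreated libraries, 47.2 and 46.6 at 10 ng/ml, 47.7 and 47.0 at 30 ng/ml, and 30.0 and 34.0 at 100 ng/ml. The libraries at 10 and 30 ng/ml lay close together and above all others. The log2 change was 0.84 ± 0.11 at 10 ng/ml, 1.79-fold with a 95% interval of 1.51 to 2.12 (edgeR adjusted p = 0.000701), and 0.85 ± 0.11 at 30 ng/ml (edgeR adjusted p = 0.000829). For 100 ng/ml it was 0.29 ± 0.11, 95% interval 0.04 to 0.53 (edgeR adjusted p = 0.333). Tlr2 at 100 ng/ml was lower than at 10 ng/ml by a log2 difference of -0.55 (edgeR adjusted p = 0.00793) and than at 30 ng/ml by -0.57 (edgeR adjusted p = 0.00946). Both calls were lost without replicate 1 of 100 ng/ml (adjusted p = 0.0570 and 0.0663), and the call against 30 ng/ml was also lost without replicate 1 of 30 ng/ml (adjusted p = 0.0571).

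Tlr6, the other partner of Tlr2, which serves diacylated lipopeptides, lies beside Tlr1 at chr5:64952031-64960097. Its level was 2.70 and 2.75 CPM in untreated cells, 3.58 and 3.98 at 10 ng/ml, 4.80 and 4.06 at 30 ng/ml, and 2.82 and 3.85 at 100 ng/ml. All treated libraries were above the untreated ones, by little at 100 ng/ml. The log2 changes were 0.47 ± 0.22 (edgeR adjusted p = 0.147), 0.70 ± 0.22 (edgeR adjusted p = 0.0516) and 0.29 ± 0.22 (edgeR adjusted p = 0.675). The value at 30 ng/ml passed the threshold without replicate 1 or 2 of 100 ng/ml (adjusted p = 0.0417 and 0.0448). Tlr1 and Tlr6 share sequence: 454 of the 50-base stretches of their transcripts occur in both, 13.6% of those of Tlr1 and 12.3% of those of Tlr6, so reads of either may have been counted for the other.

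Cd14, which hands lipopolysaccharide to Tlr4 and Ly96 and also serves Tlr2, had 17.9 and 17.7 CPM in the untreated libraries, 38.7 and 44.3 at 10 ng/ml, 39.6 and 32.0 at 30 ng/ml, and 18.7 and 25.4 at 100 ng/ml. The libraries at 10 and 30 ng/ml were all above those of the other groups. Cd14 rose by 1.22 ± 0.17 at 10 ng/ml, 2.33-fold with a 95% interval of 1.79 to 3.04 (edgeR adjusted p = 0.00104), and by 1.01 ± 0.17 at 30 ng/ml (edgeR adjusted p = 0.00339). The log2 change at 100 ng/ml was 0.31 ± 0.17 (edgeR adjusted p = 0.533). The level at 100 ng/ml was below that at 10 ng/ml by a log2 difference of -0.91 (edgeR adjusted p = 0.00618) and below that at 30 ng/ml by -0.70 (edgeR adjusted p = 0.0262). The latter was lost without replicate 1 of 30 ng/ml (adjusted p = 0.156) and without replicate 1 of 100 ng/ml (adjusted p = 0.127). Cd14 is also a marker of monocytes. The summed level of the myeloid list was higher at 10 ng/ml (25.0 to 28.1 CPM) and 30 ng/ml (23.8 to 29.3 CPM) than in untreated cells (16.8 to 21.2 CPM), as Cd14 was, and it stood at 28.7 to 30.9 CPM at 100 ng/ml. Of the 8 tested genes of that list, Cd68 was called higher at all 3 doses and Mertk lower at 10 and 30 ng/ml. At 100 ng/ml Cd68 was called lower than at 10 and at 30 ng/ml. Mertk was called higher at 100 than at 10 ng/ml, and Csf1r higher at 100 than at 30 ng/ml. Ptprc had 0 counts at 10 ng/ml but had counts in every other group, and Adgre1 and Csf1r had counts in all groups. The part of myeloid cells in the level of Cd14 was not tested.

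Tlr4, the lipopolysaccharide receptor (chr4:66827584-66930284, plus strand), was the one of the 10 with abundant counts whose replicates disagreed. It was counted 3822 and 3713 times in untreated cells, 393 and 2956 times at 10 ng/ml, 3083 and 578 times at 30 ng/ml, and 3192 and 2912 times at 100 ng/ml. As levels these are 76.4 and 74.5, 10.5 and 69.1, 67.9 and 13.6, and 80.2 and 72.9 CPM. One library at 10 ng/ml (replicate 1) and one at 30 ng/ml (replicate 2) were low, 6.58-fold and 4.97-fold below the other library of their group, and the remaining 6 lay between 67.9 and 80.2 CPM.

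Such gaps were rare. Among genes with at least 10 CPM the libraries of a group differed over 4-fold for 0.196% of 9685 genes at 10 ng/ml and 0.185% of 9734 genes at 30 ng/ml, and the median difference was 1.08-fold and 1.07-fold. Of 9549 genes that reached this level in both groups, 3 were over 4-fold lower in the same libraries as Tlr4, namely Tlr4 itself, Gm21451 and Gm28048, predicted genes named here after their values were seen. Gm21451 was at 0.0801 and 30.2 CPM at 10 ng/ml and at 41.3 and 0.118 CPM at 30 ng/ml. Gm28048 was at 0.0267 and 31.1 CPM, and at 26.5 and 0.0236 CPM. No exon of Tlr4 overlaps an exon of another gene in the annotation, and 0.216% of its 50-base stretches occur in other genes. The cause of the gap was not tested.

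The log2 change of Tlr4 was -0.92 ± 0.85 at 10 ng/ml (edgeR adjusted p = 0.473), -0.89 ± 0.85 at 30 ng/ml (edgeR adjusted p = 0.522) and 0.02 ± 0.84 at 100 ng/ml (edgeR adjusted p = 0.998), with 95% intervals of -2.89 to 1.05, -2.86 to 1.08 and -1.93 to 1.97. Without the low library, the value at 10 ng/ml was -0.13, and at 30 ng/ml it was -0.15. With the low library as the only one of its group, these were -2.85 and -2.47. At 10 and 30 ng/ml the direction was negative in every one of these fits, but its size rested on single libraries.

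**Figure D2:**
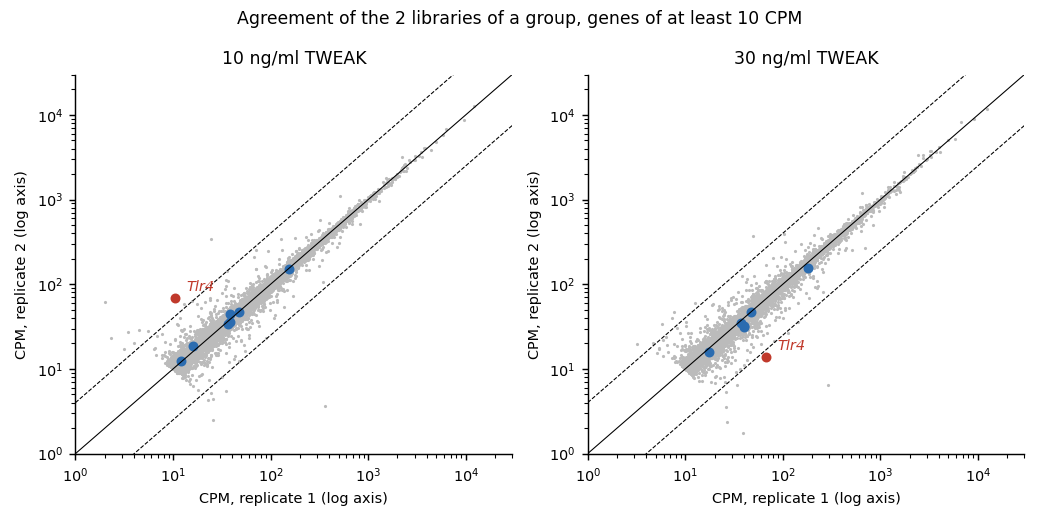
CPM of replicate 2 (y axis, log scale) against replicate 1 (x axis, log scale) at 10 and 30 ng/ml, for genes with at least 10 CPM (grey), Tlr4 (red) and the other genes followed here that reach this level (blue); the solid line is equality and the dashed lines are 4-fold. Tlr4 lies beyond the dashed line in both plots, low in replicate 1 at 10 ng/ml and low in replicate 2 at 30 ng/ml, while the blue points lie near equality. Genes with a library below the lower end of the axes, among them Gm21451 and Gm28048, are not drawn.

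Tlr3, the endosomal receptor for double-stranded RNA (chr8:45395665-45411080, minus strand), had 15.0 and 8.49 CPM in the untreated libraries, 15.9 and 18.6 at 10 ng/ml, 17.7 and 15.9 at 30 ng/ml, and 14.1 and 15.8 at 100 ng/ml. One untreated library stood below the rest, and the other was within the range of the treated ones. The log2 changes were 0.55 ± 0.24, 0.51 ± 0.24 and 0.35 ± 0.24 (edgeR adjusted p = 0.133, 0.182 and 0.649). With untreated replicate 1 left out, they passed the threshold at 10 ng/ml (1.02, adjusted p = 0.00819) and at 30 ng/ml (0.98, adjusted p = 0.0121). The exons of Tlr3 overlap those of Gm45542 over 7.32% of their bases, so some of its counts are uncertain.

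Myd88, the adaptor that links most Toll-like receptors and the interleukin-1 receptors to their kinases (chr9:119335934-119341411, minus strand), was the only one of the 10 called lower than in untreated cells, and only at 30 ng/ml. Its level was 46.8 and 43.5 CPM in untreated cells, 38.0 and 36.2 at 10 ng/ml, 37.0 and 35.1 at 30 ng/ml, and 34.2 and 39.0 at 100 ng/ml. Every treated library was below both untreated ones. The log2 change at 30 ng/ml was -0.32 ± 0.09 (edgeR adjusted p = 0.0415), a fold of 0.798 with a 95% interval of 0.687 to 0.929. At 10 ng/ml it was -0.28 ± 0.09 (edgeR adjusted p = 0.0565), and at 100 ng/ml -0.30 ± 0.09 (edgeR adjusted p = 0.237). The call at 30 ng/ml was lost when any one of the 6 untreated, 10 ng/ml or 30 ng/ml libraries was left out (adjusted p = 0.0563 to 0.213). Myd88 shares 11.3% of its exon bases with Acaa1a, and reads there could belong to either gene.

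Nod2, the receptor for muramyl dipeptide (chr8:88647315-88688474, plus strand), was near the limit of detection. It was counted 9 and 3 times in untreated cells, 59 and 36 times at 10 ng/ml, 33 and 13 times at 30 ng/ml, and 3 and 0 times at 100 ng/ml. The groups at 10 and 30 ng/ml did not overlap with the other groups, but every value stood at or under 1.58 CPM. Nod2 rose by 3.30 ± 0.95 at 10 ng/ml, 9.84-fold with a 95% interval of 2.14 to 45.2 (edgeR adjusted p = 0.0336). This call was lost when either untreated library or either library at 10 ng/ml was left out (adjusted p = 0.0614 to 0.170), and without untreated replicate 1 the log2 change was 4.26. At 30 ng/ml the log2 change was 2.08 ± 0.94 (edgeR adjusted p = 0.164).

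Nod2 at 100 ng/ml was called lower than at 10 ng/ml (edgeR adjusted p = 0.0175). With 3 counts in the group at 100 ng/ml, the level at 10 ng/ml was 31.5 times that at 100 ng/ml, with a 95% counting interval of 10.5 to 155, which covers counting error only. This call was lost without replicate 1 of 10 ng/ml (adjusted p = 0.0882) and without replicate 2 of 100 ng/ml (adjusted p = 0.0693). Nod2 at 100 ng/ml was below 30 ng/ml by a log2 difference of -3.68 ± 1.13, which was not called (edgeR adjusted p = 0.0681). The level in untreated cells was 3.19 times that at 100 ng/ml, with a counting interval of 0.862 to 17.6, so no difference between these groups was detectable at this depth.

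Nod1, the receptor for peptidoglycan fragments that hold diaminopimelic acid (chr6:54923949-54972612, minus strand), was the most abundant of the 10 per exon length. Its level was 182 and 159 CPM in untreated cells, 155 and 153 at 10 ng/ml, 180 and 157 at 30 ng/ml, and 161 and 172 at 100 ng/ml. Ripk2, the kinase downstream of both NOD receptors (chr4:16122733-16163647, minus strand), was at 30.0 and 33.2, 36.8 and 34.4, 40.3 and 31.1, and 31.1 and 35.4 CPM. For both genes the treated and untreated libraries overlapped at 30 and 100 ng/ml and were narrowly separated at 10 ng/ml. The log2 change of Nod1 at 10 ng/ml was -0.15 ± 0.09 (edgeR adjusted p = 0.269), with a 95% interval that allows a fold between 0.776 and 1.05, and that of Ripk2 was 0.17 ± 0.14 (edgeR adjusted p = 0.396), with a fold between 0.905 and 1.40. At the higher doses the log2 changes of Nod1 were -0.02 and -0.04 and those of Ripk2 were 0.18 and 0.08, with edgeR adjusted p-values of 0.412 to 0.935.

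**Figure D3:**
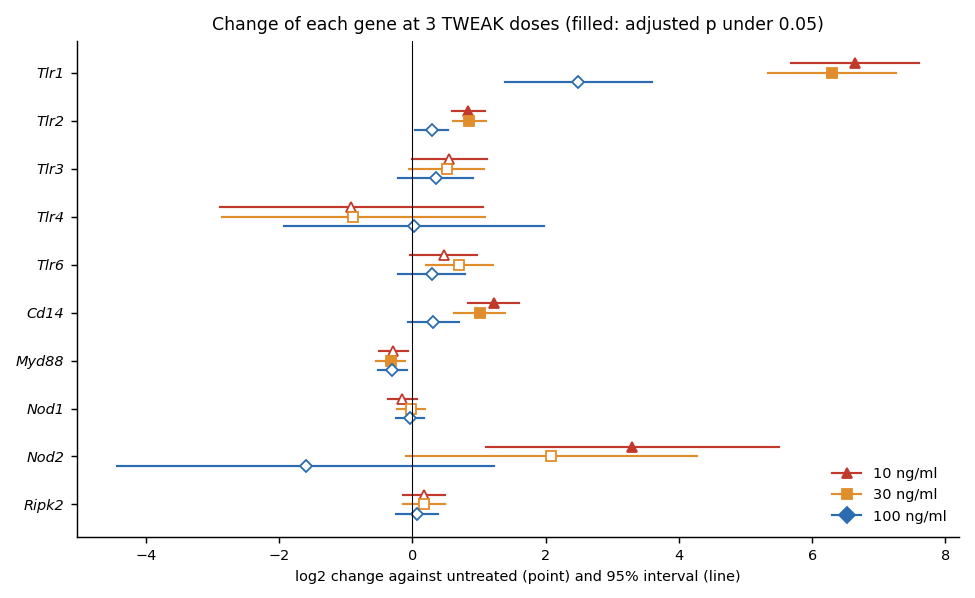
Log2 change of each gene against untreated cells (x axis; points) with its 95% interval (lines) at 10 (triangles), 30 (squares) and 100 ng/ml (diamonds); filled symbols have an edgeR adjusted p under 0.05. Filled symbols stand to the right of 0 for Tlr1, Tlr2, Cd14 and Nod2 and to the left for Myd88 at 30 ng/ml, and the intervals of Tlr4 and Nod2 are wide.

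Between doses, none of the 10 genes differed between 30 and 10 ng/ml by edgeR, where 0% of all genes were called; none of the 10 had an unadjusted p under 0.05, against 1208 genes of the table, and DESeq2 called 129 genes. Against 10 ng/ml, 4 of the 10 were lower at 100 ng/ml (Tlr1, Tlr2, Cd14 and Nod2) and none was higher, with 22.0% of all genes called, 11.2% lower and 10.7% higher. Against 30 ng/ml, 3 of the 10 were lower at 100 ng/ml (Tlr1, Tlr2 and Cd14), with 15.2% of all genes called, 8.04% lower and 7.15% higher. The libraries of the 10 genes did not overlap with the untreated ones for 10 genes at 10 ng/ml, 8 at 30 ng/ml and 5 at 100 ng/ml. The same was true of 65.6%, 63.2% and 44.0% of all genes.

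Divided by exon length, levels can be compared between genes only approximately. The length was that of all annotated exons of a gene, whichever transcripts were expressed, and the annotation used for counting was not named. In untreated cells the order of mean CPM per kb was Nod1 33.6, Myd88 17.5, Tlr4 13.6, Ripk2 11.2, Cd14 10.3, Tlr2 8.69, Tlr3 2.26, Tlr6 0.731, Tlr1 0.0359 and Nod2 0.0239. The libraries of Cd14 (10.3 and 10.2 CPM per kb) lay close to those of Ripk2 (10.6 and 11.8) and of Tlr2 (7.97 and 9.42), and those of Tlr1 (0.0418 and 0.0300) overlapped with those of Nod2 (0.0359 and 0.0120). At 10 ng/ml Cd14 stood at 24.0 ± 2.30 and Tlr2 at 15.5 ± 0.135 CPM per kb (SD, n = 2), both above Myd88 at 14.4 ± 0.519. Tlr1, at 3.67 ± 0.108 CPM per kb, was then above Tlr6 at 1.01 ± 0.0750, the reverse of untreated cells, while Nod2 remained lowest at 0.241 ± 0.104. Tlr1 was at 0.206 ± 0.111 and Tlr6 at 0.895 ± 0.197 CPM per kb at 100 ng/ml, the same order as in untreated cells. Levels of Tlr4 per kb at 10 ng/ml were 1.89 and 12.4 and are given singly because the libraries disagreed.

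**Figure D4:**
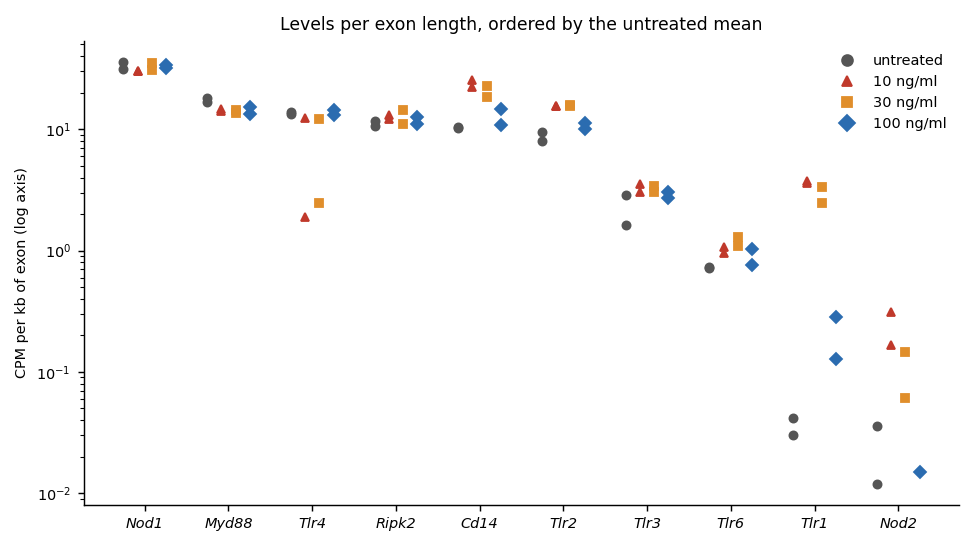
CPM per kb of exon (y axis, log scale) of the 10 genes in each library, ordered by the untreated mean; circles are untreated, triangles 10 ng/ml, squares 30 ng/ml and diamonds 100 ng/ml. Nod1 is at the top near 33.6 CPM per kb, Tlr1 moves from below Tlr6 to above it at 10 and 30 ng/ml, and 1 library of Nod2 at 100 ng/ml has 0 counts and is not drawn.

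Among the other genes of these pathways, listed with earlier results of these data known, none of the remaining Toll-like receptors was called higher than in untreated cells at any dose. Of 7, 3 passed the filter, and 2 of these were called lower at 10 ng/ml. Over all genes 14.2% were called lower and 15.0% higher at that dose. Tlr5, the flagellin receptor, fell from 2.06 ± 0.148 to 0.429 ± 0.111 CPM at 10 ng/ml (SD, n = 2; -2.26 on the log2 scale, edgeR adjusted p = 0.00892; 0.0604 without replicate 2 of 10 ng/ml). Tlr13, a mouse receptor for bacterial ribosomal RNA, had 16 counts in the untreated libraries and 0 at 10 ng/ml, at least 4.28-fold lower against a floor of 3 counts over the group (edgeR adjusted p = 0.0285), a call lost when either untreated or either 10 ng/ml library was left out (adjusted p = 0.0829 to 0.101) and also without replicate 1 of 30 ng/ml or either library of 100 ng/ml (adjusted p = 0.0547 to 0.0642). Of 6 tested co-receptors, Ly96, the partner of Tlr4, rose from a mean of 9.84 ± 0.238 CPM to 18.0 ± 2.50 CPM (0.87 on the log2 scale, edgeR adjusted p = 0.00209). Lbp, the lipopolysaccharide-binding protein, fell from 49.9 ± 0.0435 to 15.2 ± 0.157 CPM (-1.71 on the log2 scale, edgeR adjusted p = 6.85e-05).

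Downstream of the receptors, 1 of 20 tested adaptors, kinases and ubiquitin ligases rose and 2 fell at 10 ng/ml. Over all genes 15.0% were called higher and 14.2% lower, shares that apply to each list in this paragraph. The median log2 change of the 20 was -0.12 (all genes 0.0063). The one that rose was Irf5, a transcription factor activated by Toll-like receptors (1.93, edgeR adjusted p = 0.00170), and those that fell were the ubiquitin ligase Peli2 (-1.04, edgeR adjusted p = 9.43e-05) and the transcription factor Irf3 (-0.37, edgeR adjusted p = 0.0303), whose call was lost when any one of the libraries compared was left out (adjusted p = 0.0812 to 0.139). Of 8 folding and trafficking factors, 1 fell, Cnpy4 (-0.31, edgeR adjusted p = 0.0402), a call lost without either untreated library (adjusted p = 0.114 and 0.161), without replicate 2 of 10 ng/ml (adjusted p = 0.191) and without either library of 30 ng/ml (adjusted p = 0.0524 and 0.0521). The exons of Irf5, named above, overlap those of Tnpo3 over 14.1% of their bases, so some of its counts are uncertain. Of 12 tested genes listed as negative regulators, 5 rose and 2 fell. Tnfaip3 (A20), which removes ubiquitin chains from signalling proteins, rose by 3.10 (edgeR adjusted p = 2.99e-05). Its partner Tnip1 rose by 2.31 (edgeR adjusted p = 1.09e-05) and the interleukin-33 receptor Il1rl1 by 3.04 (edgeR adjusted p = 1.51e-05). Nfkbiz, placed in the same list, had a change of -0.99 (edgeR adjusted p = 0.00108). Whether Nfkbiz acts as a negative regulator in these cells was not tested. Il1rl1 was also called higher at 100 ng/ml (1.06, edgeR adjusted p = 0.0320).

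Of 13 tested NOD and inflammasome genes, 5 rose and 1 fell at 10 ng/ml, beside 15.0% of all genes higher and 14.2% lower. Their median log2 change was 0.70 (all genes 0.0063). Slc15a3, a transporter of bacterial peptides in endolysosomes, rose from 1.16 ± 0.117 to 18.2 ± 0.651 CPM (3.97, edgeR adjusted p = 2.35e-05). Its exons overlap those of Tmem132a over 28.1% of their bases, and those of Pycard, given next, overlap Gm45205 over 12.8%. Some counts of both genes are therefore uncertain. The inflammasome adaptor Pycard (ASC) rose from 5.85 ± 0.160 to 15.0 ± 1.11 CPM (1.36, edgeR adjusted p = 0.000412), and Naip2, which detects a rod protein of bacterial secretion systems, by 1.16 (edgeR adjusted p = 0.0100; 0.0591 without untreated replicate 1). Nlrc3 rose by 0.66 (edgeR adjusted p = 0.0186; 0.112 without untreated replicate 2 and 0.108 without replicate 1 of 10 ng/ml).

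Of 10 cytosolic RNA and DNA sensors, 1 rose and 2 fell at 10 ng/ml. Here and for the next list, the shares of all genes were 15.0% higher and 14.2% lower. Tmem173 (STING), the adaptor of cytosolic DNA sensing, rose by 1.08 (edgeR adjusted p = 0.000513). The RNA-sensing kinase Eif2ak2 (PKR) had a change of -0.50 (edgeR adjusted p = 0.0108) and the RNA sensor Ifih1 (MDA5) of -0.52 (edgeR adjusted p = 0.0336), and both calls were lost without untreated replicate 1 (adjusted p = 0.0722 and 0.195) and without replicate 1 of 10 ng/ml (adjusted p = 0.0673 and 0.150). That of Ifih1 was also lost without replicate 2 of 10 ng/ml (adjusted p = 0.0811). Of 8 lectin, scavenger and soluble receptors, 2 rose and 2 fell. The scavenger receptors Scara3 (-1.30, edgeR adjusted p = 4.28e-05) and Colec12 (-0.91, edgeR adjusted p = 0.000118) fell. Clec4e, with 1.89 ± 1.13 CPM at 10 ng/ml, and Mrc1, with 0.379 ± 0.106 CPM, passed narrowly (edgeR adjusted p = 0.0423 and 0.0428). The call of Mrc1 was lost when any one of the 8 libraries was left out (adjusted p = 0.0714 to 0.211) and with DESeq2 (adjusted p = 0.0814). That of Clec4e was lost without either untreated library, replicate 2 of 10 ng/ml or either library of 30 ng/ml (adjusted p = 0.0535 to 0.282).

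Genes known to be induced by Toll-like receptor ligands were called in both directions at 10 ng/ml. Of 16 tested, 10 rose and 3 fell, beside 15.0% of all genes higher and 14.2% lower. Their median log2 change was 1.67. The chemokine Ccl5 rose from 0.260 ± 0.000808 to 45.3 ± 2.74 CPM (7.43, edgeR adjusted p = 4.91e-06) and Ccl2 from 105 ± 18.9 to 1152 ± 66.7 CPM (3.46, edgeR adjusted p = 7.92e-06). The NF-kB inhibitor Nfkbia rose by 2.72 (edgeR adjusted p = 6.80e-06) and the adhesion molecule Icam1 by 2.23 (edgeR adjusted p = 3.07e-06). The 3 that fell were Il6 (-1.94, edgeR adjusted p = 0.000939), Cxcl5 (-1.37, edgeR adjusted p = 0.000881) and Saa3 (-2.35, edgeR adjusted p = 0.000371). At 100 ng/ml 3 of the 16 were called higher, Ccl2, Ccl5 and Icam1, and none was called lower. Over all genes 0.812% were called higher and 0.305% lower at that dose.

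**Figure D5:**
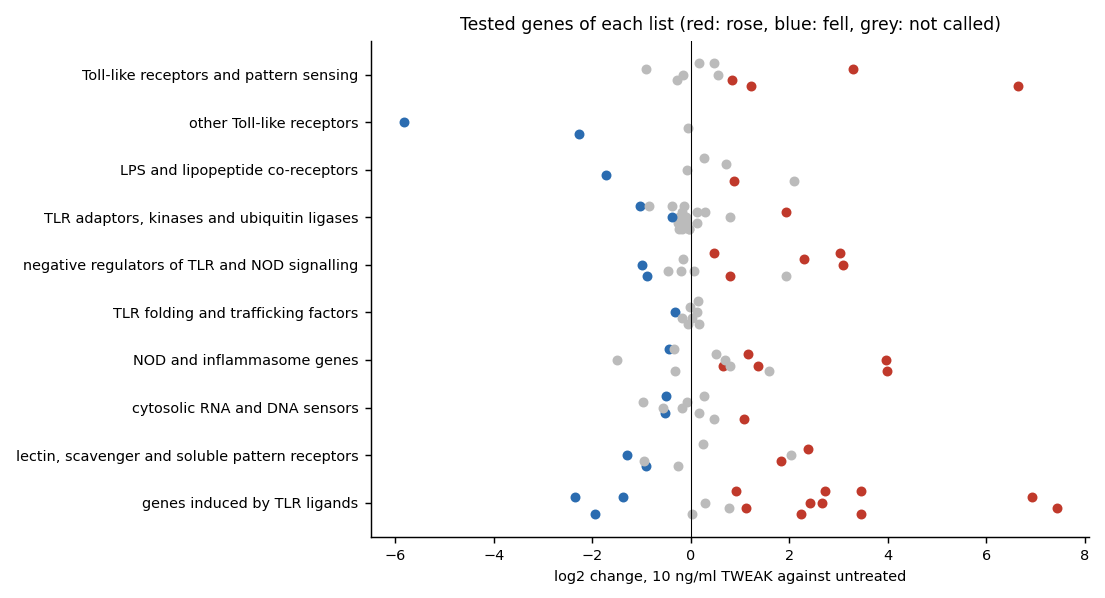
Log2 change at 10 ng/ml against untreated cells (x axis) of each tested gene (points) of the 10 genes followed here and of the 9 pathway lists (y axis); red points were called higher and blue points lower, at an edgeR adjusted p under 0.05. Red points lie at up to 7.43 among genes induced by TLR ligands and at 6.64 for Tlr1, and the blue point furthest to the left, Tlr13, had 0 counts at 10 ng/ml, so its fitted position depends on the prior count.

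For each of the 4 genes that rose at 10 ng/ml, the genes with the most similar profile were found by Pearson correlation of log2 CPM over the 8 libraries, among the 10617 or 10618 genes whose mean reached 5 CPM. The points share the 4 groups, so high values are common and the coefficients are descriptions. Closest to Tlr1 were Htra1 (r = 0.999), Nfkbia (0.998) and Slc7a7 (0.998). Htra1 went from 24.4 CPM in untreated cells to 83.7 at 10 ng/ml, 73.2 at 30 ng/ml and 32.3 at 100 ng/ml, in the same order of groups as Tlr1. Closest to Tlr2 were Nme2, Slc16a3 and Psma4 (0.994 to 0.995), and closest to Cd14 were Tpx2, Ccna2 and Rab32 (0.993 to 0.994). Trp53inp2, Ddx49 and Plxna4 were closest to Nod2 (0.979 to 0.982), a gene with few counts.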

How the data were processed

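RNA of 8 libraries of primary mouse lung fibroblasts was sequenced, 2 for each of 4 groups, and groups were taken from the sample titles. The deposited file is 1 table of raw counts, not normalized, with whole numbers in every cell. The submitters' processing notes name mm10, STAR and StringTie, without versions or roles. For the counting program, the annotation and the use of strand, none was named (not given in the sources used here), so reads of overlapping or near-identical genes may have been assigned to either gene. Of 55335 rows, 3225 had no gene symbol (0.168% to 0.178% of the counts) and were left out. Total counts ranged from 37345575 to 50896445, and intervals from counts cover counting error only.

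Genes were filtered with filterByExpr, scaled by TMM and tested with the quasi-likelihood test of edgeR 4.0.16 (R 4.3.3) in 1 fit of all libraries, with a mean per group, 4 residual and 3.77 prior degrees of freedom. P-values were two-sided and adjusted over 17360 genes in each of 6 contrasts, with a threshold of 0.05. Standard errors are approximate, since they were derived from the F statistics. The test was checked on simulated counts. The alternatives were DESeq2 1.42.0, limma-voom (limma 3.58.1), DESeq2 size factors, plain library totals in place of TMM, testing without a low-count filter, a filter at a mean of 1 CPM, fits restricted to the compared groups, a block for the replicate number, and the omission of single libraries, in which the remaining library of that group is taken to vary as the other groups do. Leaving out both libraries with low Tlr4 was chosen after seeing the data.

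The 10 genes and the pathway and marker lists were chosen with earlier results of these data known. From each pathway list, up to 4 genes called at 10 ng/ml were named in order of their p there, and for each of the 10 genes called at that dose the 3 genes with the highest correlation (log2 of CPM plus 0.5), leaving out predicted genes. Il6, Cxcl5, Saa3, the markers given and the genes low together with Tlr4 were named in addition, after their values were seen. Positions and exon lengths are those of GENCODE M21, in which 188 of 189 listed and named genes matched by symbol; promoter sequences and starts are those of RefSeq on GRCm38.p6.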

Additional observations from a re-analysis of the deposited data

How the results depend on the processing

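Under every alternative tried, Tlr1, Tlr2 and Cd14 kept their calls and their direction at 10 and 30 ng/ml against untreated cells. Depth limits Nod2, with 3 to 95 counts per group, and Tlr13. With 2 libraries a group, leaving 1 out ended many calls, and the cause of each loss was not tested beyond the fewer samples. Of the 10 genes, 3 to 4 were called at 10 ng/ml when a library was left out, 3 to 5 at 30 ng/ml, and 0 to 1 at 100 ng/ml. For 100 against 10 ng/ml the range was 3 to 4, for 100 against 30 ng/ml it was 1 to 3, and for 30 against 10 ng/ml it was 0 to 0. DESeq2 called 1 of the 10 at 100 ng/ml (Tlr1). For 100 against 30 ng/ml it called 4 of the 10, beside 2983 over all genes. With both libraries of low Tlr4 left out, 2 of the 10 were called for 100 against 10 ng/ml, since Tlr2 (adjusted p = 0.0704) and Nod2 (0.110) were lost; Nod2 at 10 ng/ml (0.190), Myd88 at 30 ng/ml (0.196) and Tlr2 for 100 against 30 ng/ml (0.0683) were lost as well.

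Myd88 at 30 ng/ml was also lost without the low-count filter (adjusted p = 0.0577), and at 10 ng/ml it passed with limma-voom (0.0447) and with a mean of at least 1 CPM (0.0466). Tlr6 at 30 ng/ml passed with limma-voom (0.0485), library totals (0.0413) and a mean of at least 1 CPM (0.0491). Cd14 for 100 against 30 ng/ml was lost in a fit of only the groups compared (0.0652). Changes of sign occurred only in values that were not called. For Nod1 at 30 ng/ml the log2 change became 0.0105 with library totals and 0.0653 without both libraries of low Tlr4, and it ranged from -0.122 to 0.0797 with 1 library left out. The same range was -0.0215 to 0.351 for Ripk2 at 30 ng/ml. At 100 ng/ml it was -0.132 to 0.0626 for Nod1, -0.0216 to 0.165 for Ripk2, -0.00941 to 0.816 for Tlr3 and -0.0504 to 0.0874 for Tlr4.

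Over all genes, 4041 were called at 30 ng/ml and 2540 to 3831 with a library left out. At 100 ng/ml 194 were called, 91 to 237 with a library left out, and 598 by DESeq2. For 30 against 10 ng/ml 0 were called, 3 to 62 with a library left out, 5 in a fit of only the groups compared, 129 by DESeq2 and 11 without both libraries of low Tlr4. For 100 against 10 ng/ml 3816 were called, 2406 to 3545 with a library left out and 2381 without both libraries of low Tlr4. For 100 against 30 ng/ml 2637 were called, and 1380 to 2468 with a library left out.

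The groups share replicate numbers. Over 17360 genes, the deviations of same-numbered libraries from their group means were nearly uncorrelated between groups (r from -0.0663 to 0.0330). A value over all genes cannot tell whether same-numbered libraries came from the same culture, animal or batch. With the replicate block, 4 of the 10 genes were called at 10 ng/ml, 3 at 30 ng/ml (Myd88 was lost, adjusted p = 0.0686), 0 at 100 ng/ml, 4 for 100 against 10 ng/ml and 4 for 100 against 30 ng/ml. Over all genes 4661 were called at 10 ng/ml with the block, beside 5075 without it. With the block 3578 genes were called at 30 ng/ml and 136 at 100 ng/ml. For 100 against 10 ng/ml 3340 were called with it, and for 100 against 30 ng/ml 2231.

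Among the genes named from the pathway lists at 10 ng/ml, Tlr13, Cnpy4 and Mrc1 were lost with the replicate block (adjusted p = 0.0547, 0.0630 and 0.0770). With limma-voom Tlr13 (0.0535), Clec4e (0.0662) and Mrc1 (0.0768) were lost. Without the low-count filter Cnpy4 (0.0564), Clec4e (0.0608) and Mrc1 (0.0553) were lost, and Mrc1 was also lost in a fit of only the groups compared (0.0703). Without both libraries of low Tlr4, the calls of Tlr5, Tlr13, Irf3, Cnpy4, Nlrc3, Ifih1 and Mrc1 were lost (0.0527 to 0.242).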
